A study of Mus musculus with 12 samples.

Results

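Gene-trap mouse oocytes that received mRNA for wild type MARF1 (GTWT) were set against gene-trap oocytes that received mRNA for D272-mutated MARF1 (GTD272), altered at an aspartate. The sample titles give the groups: 4 GTWT libraries and 4 GTD272 libraries, 8 of the 12 in the series. The other 4 come from the gene-trap oocytes with no injected mRNA in their label (GT). Whether GT oocytes were cultured, or given a control RNA, is not stated, so in any comparison with GT injection and culture cannot be told apart from the MARF1 mRNA. All 3 groups carry the gene trap in Marf1, in C57BL/6 mice aged 3 weeks. All mice were primed with PMSG, a gonadotropin that makes follicles grow. The oocytes were fully grown and at the germinal vesicle stage, before meiosis resumes, with 80 oocytes in each sample. After injection the oocytes spent 48 h in medium with milrinone, which blocks phosphodiesterase and so prevents meiosis from resuming. The labels give neither the residue that replaced the aspartate nor the MARF1 isoform whose numbering it follows. Separate animals or cultures for the replicates are not stated either, so a p-value here reflects sample-to-sample spread that could be technical. They also differ on the starting material, with lysed ovaries in one protocol and collected oocytes in the design, and on whether RNA was amplified.

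MARF1 is an RNA-binding protein of the oocyte with ribonuclease activity. Female mice without it are infertile, because their oocytes fail to resume meiosis and because some transcripts, Ppp2cb among them, stay too high. Arrest at the germinal vesicle stage is kept by cyclic AMP, which is made by adenylate cyclases and broken down by phosphodiesterases, and meiosis resumes when CDK1 with cyclin B is active and opposing phosphatases such as PP2A are held back. A fully grown oocyte makes little new RNA, so its RNA levels depend largely on storage and decay. The comparison addresses which transcripts differ when the supplied protein is wild type or mutated, with injection and culture on both sides.

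Between 11167 and 11364 genes per library reached 1 FPKM (fragments per kilobase, scaled to library size), across all 12 libraries. The values in FPKM carry no read counts, but their smallest steps put the relative depth at 66.0 to 85.0% of the deepest library in GTWT and at 65.3 to 81.5% in GTD272. Small RNA genes took 15.2 to 84.0% of the FPKM sum in GTWT libraries and 16.5 to 60.4% in GTD272 libraries. Without those genes the sums were 400630 to 404962 in GTWT and 408219 to 416778 in GTD272. Of 38 markers, covering granulosa, theca, stromal, endothelial, blood and immune cells and the keratins Krt8 and Krt18, 14 were listed at 0 in all 8 libraries. In all, 30 stayed under 1 FPKM. Their summed FPKM was 40.02 to 44.9 in GTWT and 36.5 to 43.3 in GTD272, with Krt8, Pecam1 and Cyp19a1 as the largest entries. Of the 5 that could be tested, 0 were called (2.46% of all genes were). The granulosa marker Cyp19a1 was at 6.47 to 6.79 FPKM in GTWT and 4.04 to 5.82 FPKM in GTD272, with no overlap (10.2% of all genes had none). The 15 oocyte markers summed to 9785 to 10248 FPKM in GTWT and to 9958 to 10545 FPKM in GTD272.

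Marf1 itself (chromosome 16, 14109173 to 14163351, minus strand, GRCm38) shows the supplied mRNA. It was at 13.5, 24.1, 13.6 and 19.02 FPKM in the 4 GTWT libraries, at 9.73, 9.10, 9.66 and 7.99 FPKM in the 4 GTD272 libraries, and at 1.27 to 1.83 FPKM in GT. Every injected library was above every GT library, and every GTWT library was above every GTD272 library. The difference of GTWT minus GTD272 was 0.84 on the log2(FPKM + 1) scale (SE 0.16, adjusted p = 0.0188, limma). All differences below use that scale, on which genes near or under 1 FPKM appear to change less than they do. The call was lost without GTWT replicate 4 (adjusted p = 0.0547), GTD272 replicate 2 (0.0549) or GTD272 replicate 4 (0.0505). The groups therefore differed in both the form of the supplied mRNA and its level, and these cannot be told apart here.

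**Figure D1:**
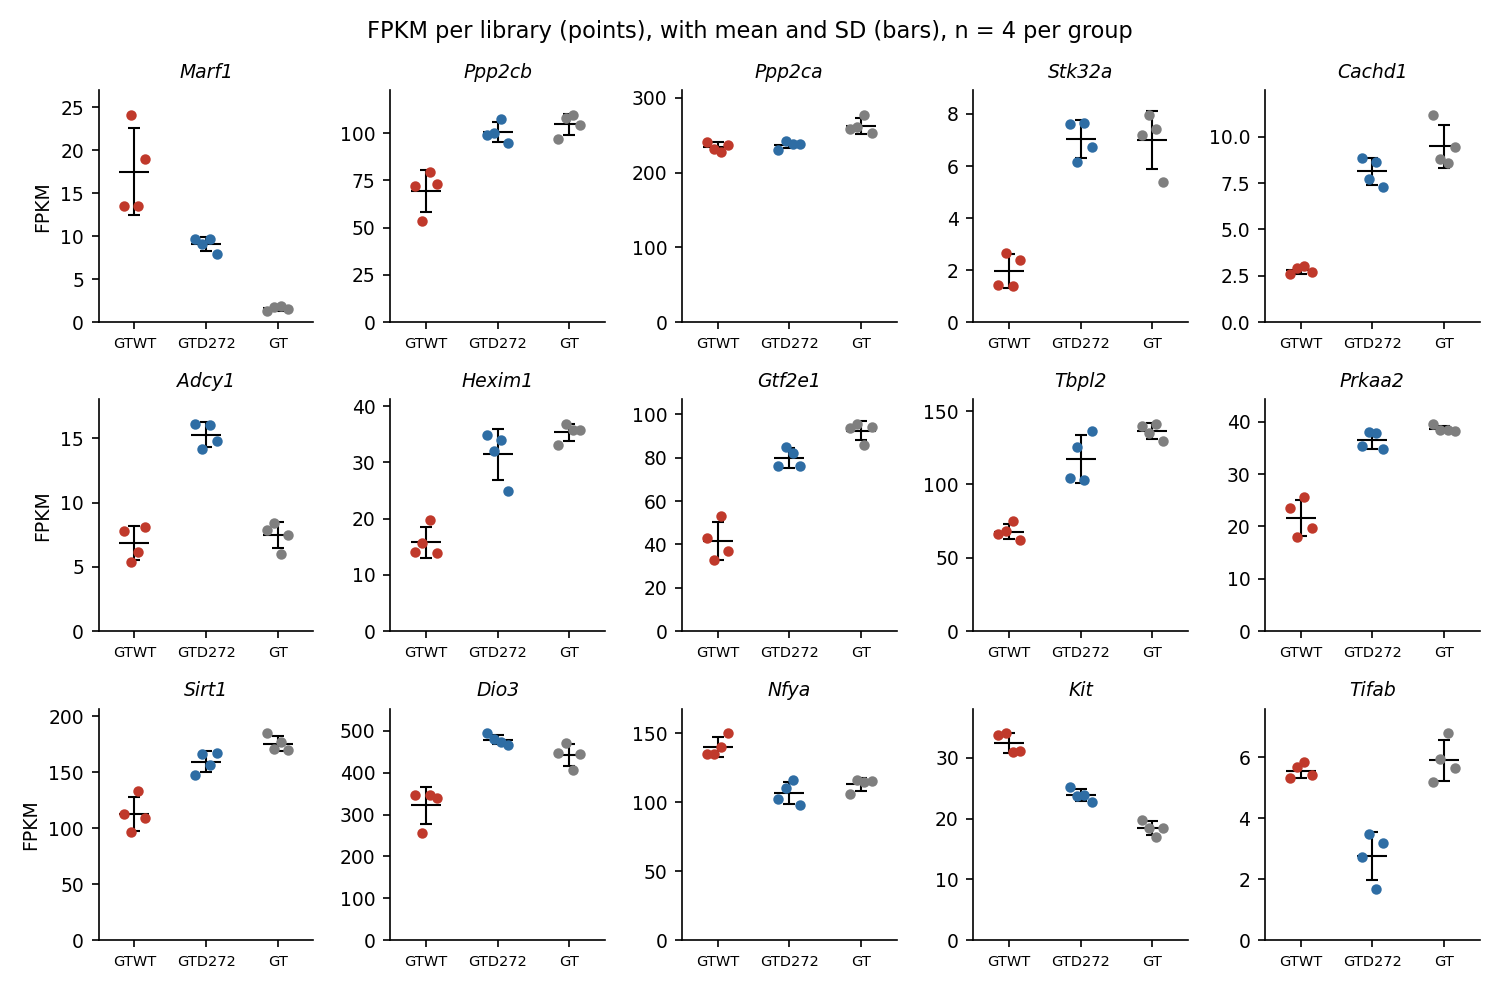
FPKM (y axis, from 0) of 15 genes in the 4 GTWT, 4 GTD272 and 4 GT libraries (x axis); each point is a library, the wide tick the mean and the bar the SD. Marf1 reaches 24.1 FPKM in GTWT and 9.73 in GTD272, Ppp2cb peaks at 79.2 FPKM in GTWT and does not go under 94.8 in GTD272, and Adcy1 and Tifab are the panels where GT lies with GTWT.

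Ppp2cb (chromosome 8, 33599625 to 33619441, plus strand, GRCm38) encodes the beta form of the catalytic subunit of protein phosphatase 2A, and Ppp2ca (chromosome 11, 52098681 to 52127778, plus strand) encodes the alpha form. Their coding sequences are both 927 bases long without the stop codon and share 757 bases (81.7%), position by position. The longest identical run is 25 bases, against reads of 150 bases, so reads from the coding part can be assigned to one gene or the other.

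Ppp2cb was at 72.0, 53.3, 79.2 and 73.3 FPKM in GTWT, against 99.1, 99.9, 107.6 and 94.8 FPKM in GTD272. The groups did not overlap, and GTWT replicate 2 was the lowest. GTD272 overlapped with GT, which had 97.0, 108.1, 109.4 and 104.3 FPKM. Ppp2cb was lower in GTWT, with a difference of -0.54 (SE 0.10, adjusted p = 0.0122, limma), and the call held with any 1 of the 12 libraries left out (adjusted p = 0.00576 to 0.0361). The table puts Ppp2cb in a locus with Ubxn8, whose level was 6.31 ± 0.904 FPKM in GTWT and 6.19 ± 0.555 FPKM in GTD272 (SD, n = 4 each).

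Ppp2ca was at 241, 232, 228 and 237 FPKM in GTWT and at 231, 243, 238 and 238 FPKM in GTD272. These values overlap, with a difference of -0.02 (95% interval -0.10 to 0.07, adjusted p = 0.875, limma). The sign of this small difference turned with median scaling (0.01) and quantile normalization (0.04). Among the 18 PP2A subunits and striatins tested, 2 were lower in GTWT and 0 higher, where 1.84% of all genes were lower and 0.625% higher. The second was Strn3, a striatin that tethers PP2A to kinases, at 35.8, 26.6, 34.7 and 34.4 FPKM in GTWT and 42.2, 48.5, 43.7 and 42.8 FPKM in GTD272. Its groups did not overlap (-0.43, adjusted p = 0.0263, limma), but it shares a locus with another gene. The call was lost without GTWT replicate 4 or GTD272 replicate 2, 3 or 4 (0.0501 to 0.0844) and with the 8 injected libraries alone (0.0716).

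Of 11687 genes tested, 288 were called (2.46%), 215 lower in GTWT (1.84%) and 73 higher (0.625%), at a Benjamini-Hochberg adjusted p under 0.05. The median difference was -0.59 among the genes lower, 0.37 among those higher and -0.01 over all genes. A difference of 2-fold or more on this scale was reached by 23 genes lower and 2 higher. The 4 GTWT libraries lay entirely below or above the 4 GTD272 libraries for 1191 of all genes (10.2%), below for 693 (5.93%) and above for 498 (4.26%). They did so for 208 of the 215 genes lower and for all 73 higher. The share of the calls that were lower depended on scaling: 74.7% as deposited, 59.7% with median scaling (184 lower, 124 higher) and 56.0% with quantile normalization (183 lower, 144 higher).

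The counts rested on single libraries. With 1 library left out in turn, 75 of the 215 genes lower and 17 of the 73 higher stayed called in each of the 12 fits. The genes lower came to 141 without GTWT replicate 2, 118 without GTWT replicate 4, and 126, 85 and 138 without GTD272 replicate 1, 2 or 4. The genes higher came to 46, 45 and 32 without GTWT replicate 1, 2 or 4, and to 42, 29, 46 and 34 without GTD272 replicate 1, 2, 3 or 4. In the paragraphs on genes that follow, a gene called with no remark on left-out libraries stayed called in all 12 fits. In bulk RNA of 80 oocytes, fewer cells with a transcript and less RNA per cell cannot be told apart.

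**Figure D2:**
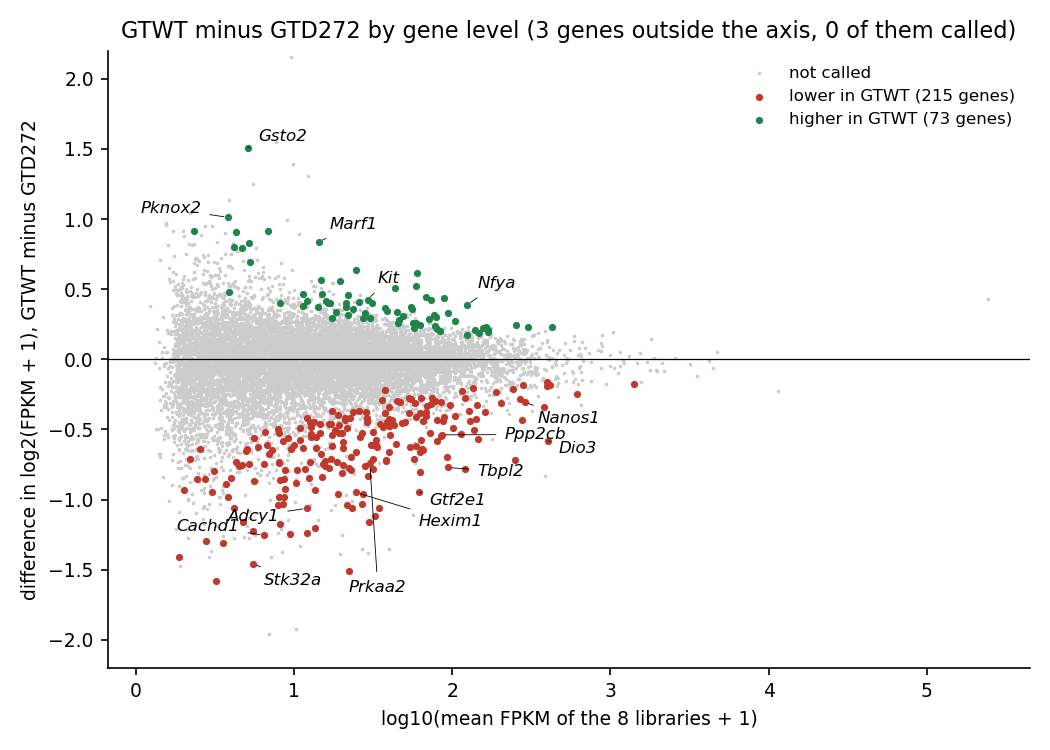
Difference in log2(FPKM + 1), GTWT minus GTD272 (y axis), against log10 of the mean FPKM of the 8 libraries plus 1 (x axis), 1 point per gene tested. The 215 genes lower reach further from 0 than the 73 higher, and 3 genes that were not called lie outside the axis.

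The largest firm differences belonged to genes of low to middle level. Genes were named for the size of their difference only where the groups did not overlap, so that trait adds no support to their calls. Stk32a (chromosome 18, 43207583 to 43318682), which encodes a serine/threonine kinase, was at 1.43, 2.66, 1.40 and 2.38 FPKM in GTWT and at 7.60, 6.15, 7.65 and 6.72 FPKM in GTD272. Cachd1 (chromosome 4, 100776675 to 101029220), which encodes a membrane protein related to the calcium channel subunits of the alpha-2-delta kind, was at 2.58, 2.94, 3.05 and 2.71 FPKM in GTWT and at 8.84, 7.74, 8.64 and 7.29 FPKM in GTD272. In both genes the groups lay far apart, at 0.280 and 0.347 of the GTD272 mean. The differences were -1.46 for Stk32a (SE 0.16, adjusted p = 0.000781) and -1.25 for Cachd1 (SE 0.11, adjusted p = 0.000205, limma).

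Zcchc18 (chromosome X, 136993155 to 136998472) was at 23.8, 17.4, 24.7 and 20.1 FPKM in GTWT and at 47.0, 47.7, 42.0 and 45.8 FPKM in GTD272, a difference of -1.06, but it shares a locus with another gene. Emc7, a subunit of the complex that inserts proteins into the endoplasmic reticulum membrane, was at 14.3, 14.6, 12.1 and 14.5 FPKM in GTWT and at 34.6, 27.5, 23.2 and 36.2 FPKM in GTD272. The Emc7 level was narrow in GTWT and broad in GTD272, with no overlap (-1.06, adjusted p = 0.00289, limma). Dio3, which inactivates thyroid hormone and is among the most abundant genes lower, was at 346, 256, 348 and 341 FPKM in GTWT and at 494, 482, 474 and 467 FPKM in GTD272 (-0.58, adjusted p = 0.00289). 5730507C01Rik was listed at 0 in all GTWT and all GT libraries and at 1.23, 1.62, 1.11 and 3.08 FPKM in GTD272, but it was not called once the pseudocount was 0.01 (adjusted p = 0.294). It passed the filter on low values only through the 4 GTD272 libraries, so its difference follows in part from the filter.

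Several of the other large differences belonged to multi-copy families, whose members share reads and are uncertain one by one. Gm4301 was at 7.23, 4.48, 7.76 and 5.09 FPKM in GTWT and at 18.8, 19.5, 11.7 and 13.6 FPKM in GTD272 (-1.24, adjusted p = 0.00822, limma). Gm20767 had a difference of -1.20 and AF067063 one of -1.12, each with no overlap between groups, as the rule for naming them required. Gm4971 had the largest difference with no overlap, at 9.28, 10.2, 10.2 and 9.34 FPKM in GTWT and 39.0, 44.6, 12.9 and 33.8 FPKM in GTD272 (-1.51). Its call was lost without GTWT replicate 4 or GTD272 replicate 1, 2 or 4 (0.0516 to 0.0637). GTD272 replicate 3 lay at 12.9 FPKM, next to the GTWT libraries.

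The same library stood apart in the list of genes that are normally switched on in the embryo at the 2-cell stage. Of its 32 tested members, 29 had a negative difference (90.6%, against 52.7% of all genes) and 3 were called lower (9.38%, against 1.84%), namely Pramef25, Gm13119 and Eif1a, with a list median of -0.97 beside -0.01 over all genes. Relative to each gene's GTD272 mean, the list median was -0.876, -0.999, -0.69 and -1.04 in the 4 GTWT libraries and 0.40, 0.48, -1.04 and 0.23 in the 4 GTD272 libraries. GTD272 replicate 3 was thus as low as the GTWT libraries and held the lowest GTD272 value for 25 of the 32 members. Without it, 16 members were called lower and the list median was -1.31. Without any other library 0 to 4 members were called, with 0 without GTWT replicate 4 or GTD272 replicate 2, 1 without GTWT replicate 2, GTD272 replicate 1 or 4 or GT replicate 4, and 2 without GTWT replicate 1 or GT replicate 2 or 3. GT replicate 1 was the highest of the GT libraries at 0.92, the others lying at -0.09 to 0.12. The count was 1 with the 8 injected libraries alone and 0 with no filter on low values. Many members are copies of multi-copy families that share reads.

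Eif1a, which encodes a translation initiation factor and is the best measured of the 3, was at 70.2, 46.6, 76.8 and 62.2 FPKM in GTWT and at 92.9, 105, 94.6 and 87.9 FPKM in GTD272. Its groups did not overlap, also with GTD272 replicate 3 (-0.59, adjusted p = 0.0253, limma). The call was lost without GTWT replicate 4 or GTD272 replicate 1, 2 or 3 (0.0501 to 0.0828), with the 8 injected libraries alone and with no filter on low values. Gm13119 (-1.03, adjusted p = 0.0378) was lost without GTWT replicate 1, 2 or 4, GTD272 replicate 2, 3 or 4 or GT replicate 4 (0.0508 to 0.108). Pramef25 (-1.17, adjusted p = 0.0416), whose groups overlapped, was lost without the same 3 GTWT libraries, GTD272 replicate 1, 2 or 4 or GT replicate 2, 3 or 4 (0.0512 to 0.111).

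Several genes of the machinery that starts transcription by RNA polymerase II were lower in GTWT. In a list of 92 tested genes that was put together after these values were seen, 8 were lower (8.70%, against 1.84% of all genes) and 0 higher by limma, while 26 had an unadjusted p under 0.05 (28.3%, against 18.4% of all genes). Since the list was drawn up that way its count is a description. The list median was -0.05, so most members moved little. Tbpl2 (chromosome 2, 24071721 to 24096595), the oocyte's own paralog of the TATA-binding protein, was at 66.3, 68.0, 75.2 and 62.2 FPKM in GTWT and at 105, 125, 103 and 136 FPKM in GTD272. Every GTWT library was below every GTD272 library (-0.77, SE 0.09, adjusted p = 0.000781, limma). Tbp, its paralog used in other cells, was at 65.0 ± 2.28 FPKM in GTWT and 70.5 ± 2.25 FPKM in GTD272 (SD, n = 4 each), and did not pass (-0.11, adjusted p = 0.264).

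Gtf2e1, the large subunit of TFIIE, was at 43.2, 33.0, 53.2 and 36.8 FPKM in GTWT and at 76.1, 85.1, 82.3 and 76.2 FPKM in GTD272. Hexim1, which holds the elongation kinase P-TEFb inactive, was at 14.01, 15.6, 19.7 and 13.9 FPKM in GTWT and at 34.9, 31.9, 34.0 and 24.8 FPKM in GTD272. Both had a difference of -0.95 (adjusted p = 0.000996 and 0.00126, limma), with no overlap. Their partners did not pass: Gtf2e2 had a difference of -0.11, Hexim2 of 0.12 and the kinase Cdk9 of -0.20. Med21, a Mediator subunit that shares a locus with another gene, was at 245, 239, 235 and 249 FPKM in GTWT and at 292, 312, 278 and 298 FPKM in GTD272 (-0.28, adjusted p = 0.00289).

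The large subunit of TFIIA, the partner of TBP-type factors, comes from Gtf2a1 and from its germ cell paralog Gtf2a1l. Gtf2a1 was at 14.2 FPKM on average in GTWT and 24.4 in GTD272 (-0.75, adjusted p = 0.0269, limma), but the call was lost without GTWT replicate 1, 2 or 4 or GTD272 replicate 2 or 4 (0.0599 to 0.0844). Gtf2a1l was at 113, 107, 103 and 107 FPKM in GTWT and 132, 136, 116 and 136 FPKM in GTD272 (-0.27, adjusted p = 0.0362), and its call was lost without 7 of the 12 libraries, namely GTWT replicate 2, 3 or 4, GTD272 replicate 1, 2 or 4 or GT replicate 4 (0.0535 to 0.102), and with either rescaling. The call of Ccnc, the cyclin of the Mediator kinase module, was lost without GTWT replicate 4 or GTD272 replicate 2 (-0.77, 0.0526 to 0.062), and that of Polr2m without 10 of the 12 (-0.23). The exceptions for Polr2m were GTWT replicate 3 and GTD272 replicate 1. With the 8 injected libraries alone, Gtf2a1, Gtf2a1l, Ccnc and Polr2m were not called. Among 23 tested transcription factors of the oocyte, Tbpl2 and Gtf2a1l were the 2 called (8.70% lower, against 1.84% of all genes). Nobox (-0.03), Lhx8 (0.08) and Figla (-0.10) did not pass.

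Zfp367, a zinc finger protein, was at 11.6, 10.8, 18.7 and 12.5 FPKM in GTWT and at 24.8, 29.1, 28.1 and 29.97 FPKM in GTD272 (-1.04, adjusted p = 0.00338, limma). Of 280 tested genes with a Zfp name, 8 were lower (2.86%) and 0 higher, so their share was near the 1.84% of all genes. Of these, Zfp367, Zfp800 (-0.88), Zfp715 (-0.72) and Zfp644 (-0.66) stayed called whichever library was left out. Zfp715 was the most abundant of these, at 204, 154, 229 and 168 FPKM in GTWT against 288, 335, 288 and 321 FPKM in GTD272. Homeobox genes with the name stems of Hoxb2, Six5 and Pknox2 were grouped after values were seen, so the count is a description. Of the 13 tested, 3 were lower (23.1%, against 1.84% of all genes) and 1, Pknox2, was higher (7.69%, against 0.625%). Hoxb2 (-1.04) and Hoxd8 (-0.74) had no overlap, and both calls were lost without GTD272 replicate 2 (adjusted p = 0.053 and 0.0573). The third, Six5 (-0.45, adjusted p = 0.0424), was lost without GTWT replicate 2, 3 or 4, any GTD272 library or GT replicate 1 or 2 (0.0541 to 0.108).

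NF-Y, a trimer that binds CCAAT boxes, was the complex whose subunits differed in opposite directions. Nfya, its DNA-contacting subunit, was at 135, 135, 140 and 150 FPKM in GTWT and at 103, 111, 116 and 97.9 FPKM in GTD272 (0.39, adjusted p = 0.00397, limma). Nfyb was at 6.81, 7.17, 5.86 and 5.90 FPKM in GTWT and at 9.85, 11.3, 9.93 and 8.90 FPKM in GTD272 (-0.56, adjusted p = 0.0168). Neither gene overlapped between groups, and the Nfyb call was lost without GTD272 replicate 2 (0.0574). Nfyc did not pass, at 38.1 FPKM on average in GTWT and 36.8 in GTD272. The 3 genes were put together after their values were seen.

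Of 124 tested members of 5 lists of RNA turnover and translational control, 3 were called (2.42%), near the 2.46% of all genes. Khsrp, a protein that binds AU-rich elements and promotes decay, was at 6.30, 7.38, 10.8 and 9.15 FPKM in GTWT and at 13.5, 19.4, 15.3 and 18.996 FPKM in GTD272 (-0.93, adjusted p = 0.00796, limma). Nanos1, a partner of Pumilio in silencing mRNA, was at 241, 253, 261 and 268 FPKM in GTWT and at 290, 345, 311 and 320 FPKM in GTD272 (-0.31, adjusted p = 0.00804). These were the 2 called of 25 tested AU-rich element and turnover adaptors, and neither overlapped between groups. Zfp36l2, needed for maternal mRNA turnover, was at 144 ± 38.7 FPKM in GTWT and 209 ± 11.6 FPKM in GTD272 (SD, n = 4 each) and did not pass (-0.57, adjusted p = 0.0667).

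Of 22 deadenylation, 19 decapping and 25 exosome and nonsense-mediated decay genes, limma called 0, while 5, 3 and 4 had an unadjusted p under 0.05 (18.4% of all genes did). The list medians were -0.05, 0.04 and 0.00. Btg4, the adaptor that brings CCR4-NOT to maternal mRNA, was at 336 ± 21.5 FPKM in GTWT and 362 ± 12.2 FPKM in GTD272 (SD, n = 4 each). Of 33 translational control genes 1 was lower, Cpeb2 (-0.73, adjusted p = 0.0385), which shares a locus. Its call was lost without 9 of the 12 libraries, namely GTWT replicate 2 or 4, any GTD272 library or GT replicate 2, 3 or 4 (0.0543 to 0.0847), and with the 8 injected libraries alone.

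The kinase AMPK, which senses cellular energy, had both genes of its catalytic subunit lower in GTWT. The genes of AMPK and its activator Stk11 were grouped after values were seen, so their count is a description. Of 9 tested, 2 were lower (22.2%, against 1.84% of all genes) and 1 higher (11.1%, against 0.625%). Prkaa2 and Stk11 were also the ends of the list of PI3K, FOXO and mTOR genes, where 2 of 30 were lower (6.67%) and 1 higher (3.33%). Prkaa2 was at 23.5, 17.9, 25.5 and 19.8 FPKM in GTWT and at 35.3, 38.1, 37.9 and 34.8 FPKM in GTD272 (-0.74, adjusted p = 0.00126, limma). Prkaa1 was at 10.9, 10.0, 11.2 and 8.72 FPKM in GTWT and at 17.1, 16.0005, 14.8 and 13.8 FPKM in GTD272 (-0.55, adjusted p = 0.0216). Neither overlapped, and the Prkaa1 call was lost without GTWT replicate 4 or GTD272 replicate 1 or 2 (0.0561 to 0.0651). The tested beta and gamma subunits did not pass, with differences between that of Prkab2 (-0.00328) and that of Prkab1 (0.12). Stk11, which encodes the kinase LKB1 that activates AMPK, was higher by 0.36 (adjusted p = 0.0231), but the table puts it in a locus of 49 genes and its value is uncertain. Its call was lost without GTWT replicate 1 or GTD272 replicate 2, 3 or 4 (0.0509 to 0.0681) and with the 8 injected libraries alone.

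Single genes of other pathways were called lower. Fzd5, a WNT receptor, was at 133, 92.4, 136 and 109 FPKM in GTWT and at 172, 174, 180 and 167 FPKM in GTD272 (-0.57, adjusted p = 0.00736, limma). It was the 1 call among 35 SMAD and WNT genes (2.86%, near the 2.46% of all genes). Sirt1, an NAD-dependent deacetylase, was at 112, 96.6, 133 and 109 FPKM in GTWT and at 147, 166, 157 and 167 FPKM in GTD272 (-0.50, adjusted p = 0.00504). In both genes GTWT replicate 2 was the lowest of the 8 libraries and no GTWT library reached a GTD272 library. Kpna1, an importin alpha that carries proteins into the nucleus, had a difference of -0.76 (adjusted p = 0.00267), and Rab1, a GTPase of transport from the endoplasmic reticulum to the Golgi, one of -0.32 (adjusted p = 0.0172).

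Among genes of meiotic arrest and the cell cycle, Adcy1 stood out. Adcy1 (chromosome 11, 7063489 to 7178506), an adenylate cyclase stimulated by calcium and calmodulin, was at 7.83, 5.41, 6.14 and 8.10 FPKM in GTWT and at 16.1, 14.2, 16.1 and 14.8 FPKM in GTD272 (-1.06, SE 0.13, adjusted p = 0.00119, limma). GT was at 7.91, 8.42, 6.02 and 7.496 FPKM, which overlaps with GTWT and lies below every GTD272 library. Of 52 tested genes of this list, 2 were lower (3.85%, against 1.84% of all genes). Marf1, the supplied mRNA, was the 1 higher (1.92%, against 0.625%). The second gene lower was Map3k8, a kinase of the MAP kinase cascade (-0.58, adjusted p = 0.0159, limma). Its call was lost without GTD272 replicate 2 (0.0566). The central regulators did not pass: Ccnb1 was at 294 ± 13.7 FPKM in GTWT and 306 ± 26.98 FPKM in GTD272, Mos at 579 ± 15.05 FPKM in GTWT and 657 ± 56.1 FPKM in GTD272, and Wee2 at 114 ± 2.96 FPKM in GTWT and 112 ± 3.27 FPKM in GTD272 (SD, n = 4 each). Pde3a, the phosphodiesterase that milrinone inhibits, was at 24.7 ± 1.10 FPKM in GTWT and 21.1 ± 0.764 FPKM in GTD272 (SD, n = 4 each, 0.22, adjusted p = 0.0734), and it shares a locus with another gene.

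The genes higher in GTWT differed less, with 16 of 73 reaching 0.5, where 136 of 215 genes lower reached -0.5. Kit (chromosome 5, 75574916 to 75656722), the oocyte's receptor for KIT ligand, was at 33.7, 34.0, 30.9 and 31.1 FPKM in GTWT and at 25.1, 23.8, 23.9 and 22.7 FPKM in GTD272. The groups did not overlap (0.43, SE 0.07, adjusted p = 0.00507, limma). It was the 1 call among 17 zona pellucida and oocyte-secreted genes (5.88%, against 2.46% of all genes). In that list Zp3, at 631 ± 22.02 FPKM in GTWT and 619 ± 36.3 FPKM in GTD272, and Gdf9 (-0.01) did not pass. Lpin2, a phosphatase of lipid synthesis, was at 171, 169, 164 and 167 FPKM in GTWT and at 146, 144, 144 and 141 FPKM in GTD272 (0.22, adjusted p = 0.00638). Tifab, an inhibitor of TRAF6 signalling, was at 5.30, 5.66, 5.83 and 5.40 FPKM in GTWT and at 2.72, 3.47, 1.67 and 3.18 FPKM in GTD272 (0.83, adjusted p = 0.0129), and GT lay with GTWT at 5.19 to 6.78 FPKM.

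The largest differences upward were less firm. Gsto2, a glutathione transferase, was at 8.95, 7.97, 4.76 and 4.23 FPKM in GTWT and at 1.51, 0.433, 2.72 and 2.06 FPKM in GTD272 (1.51, SE 0.36, adjusted p = 0.0456, limma). Its call was lost without any GTWT library, GTD272 replicate 1, 2 or 4 or GT replicate 2 or 3 (0.055 to 0.117), with either smaller pseudocount and with no filter on low values. Pknox2, a homeobox gene, was at 4.14, 4.97, 3.34 and 3.85 FPKM in GTWT and at 1.84, 1.97, 1.77 and 0.671 FPKM in GTD272 (1.01, adjusted p = 0.0188), and its call was lost without GTWT replicate 2 (0.0509). St6galnac3, a sialyltransferase that shares a locus, was higher by 0.92 (adjusted p = 0.0201) and was lost without GTD272 replicate 2 (0.0574). In the small RNA pathway Dicer1 was at 90.9, 90.1, 85.1 and 86.6 FPKM in GTWT and at 76.9, 72.8, 80.7 and 76.5 FPKM in GTD272 (0.20, adjusted p = 0.0397). Dicer1 was lost without GTWT replicate 1, 2 or 4, GTD272 replicate 1, 2 or 4 or any GT library (0.0522 to 0.11) and with the 8 injected libraries alone.

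Further called members of the gene lists were less firm. In glycolysis and pyruvate handling, 2 of 29 were lower (6.90%, against 1.84% of all genes), while the list median was 0.06 and 12 were negative. Those 2 were Slc16a1, a carrier of lactate and pyruvate, at 47.6, 36.8, 63.3 and 51.9 FPKM in GTWT and 67.7, 93.5, 70.1 and 78.0 FPKM in GTD272, and the glycolytic enzyme Pgam1 (-0.30). The Slc16a1 call (-0.64) was lost without GTWT replicate 1 or 4 or GTD272 replicate 2 or 4 (0.0524 to 0.0781, limma), and the Pgam1 call without GTWT replicate 2 or GTD272 replicate 2, 3 or 4 (0.0508 to 0.062). Tdrd1, of the piRNA pathway, was at 62.4, 62.8, 61.2 and 60.4 FPKM in GTWT and 53.6, 46.4, 49.0 and 42.8 FPKM in GTD272 (0.36, adjusted p = 0.0263), and was lost without GTWT replicate 1, 2 or 4 or GTD272 replicate 2 or 4 (0.0529 to 0.0784). Tex19.1 (-0.19), Uhrf2 (-0.30), Dusp6 (-0.71), Sc5d (-0.46) and Cenpf (0.30) had adjusted p-values of 0.037 to 0.043, and each lost its call without 8 or more of the 12 libraries. Abl2, a tyrosine kinase of the cytoskeleton named after its values were seen, was at 78.3, 66.6, 70.1 and 70.0 FPKM in GTWT and 41.6, 45.3, 48.6 and 49.7 FPKM in GTD272. It held whichever library was left out (0.61, adjusted p = 0.00126).

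Of the 27 gene lists, 10 held 0 calls by limma, where 2.46% of all genes were called. Their 250 tested members, 57 of them with an unadjusted p under 0.05 (22.8%, against 18.4% of all genes), covered the 3 decay lists, maternal-effect genes, meiotic recombination, DNA damage, the unfolded protein response, interferon and RNA sensing, ion channels and the markers of other cell types. All of these list medians lay between -0.05 and 0.06. Cdkn1a, the p53 target that halts the cell cycle, had the largest difference among them at 3.24 ± 1.61 FPKM in GTWT and 1.29 ± 0.448 FPKM in GTD272 (SD, n = 4 each) and did not pass (0.84, adjusted p = 0.096). Nlrp5, a maternal-effect gene, was at 283 ± 20.3 FPKM in GTWT and 257 ± 15.4 FPKM in GTD272 and did not pass. Hspa5, the chaperone that marks the unfolded protein response, was at 240 ± 16.7 FPKM in GTWT and 222 ± 10.4 FPKM in GTD272.

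**Figure D3:**
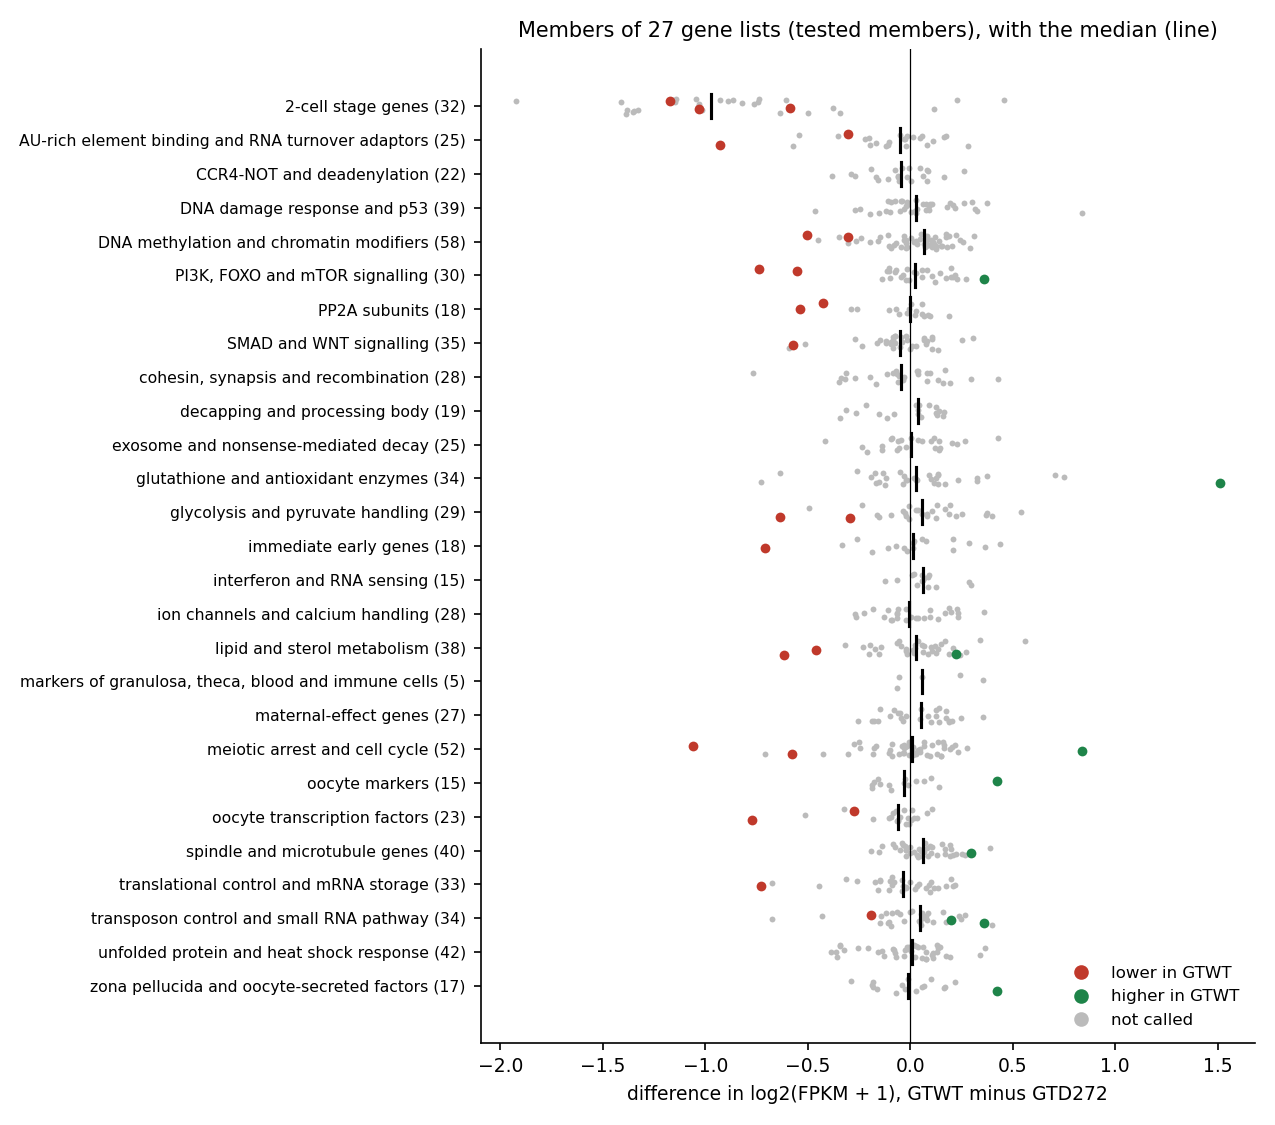
Difference in log2(FPKM + 1), GTWT minus GTD272 (x axis), of the tested members of 27 gene lists (y axis, number tested in brackets); red and green points were called lower and higher in GTWT, grey points were not called, and the black line is the list median. The 2-cell list has a median of -0.97, and every other list median lies near 0.

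Of the 4 most abundant genes lower, Dio3 had the largest difference (-0.58, above), while C87499 had a difference of -0.19, B3gnt2 of -0.25 and E330021D16Rik of -0.18. Of the 4 most abundant higher, Rdx had 0.23, Pla2g4c 0.23, Mtus1 0.20 and Ier5l 0.24. Apart from Dio3, none of these 8 held with every library left out in turn, and C87499, B3gnt2 and E330021D16Rik were not called with median scaling or quantile normalization. Further large differences were also not called in all 12 fits. Clcf1 (-1.30), Gm4312 (-1.23), Cisd3 (-1.16), Gm5039 (-1.16), Ndrg1 (0.92), Elf3 (0.91), Sh3rf2 (0.80), Cd200 (0.80) and Cfap58 (0.70) had no overlap between groups. That was a condition for naming these genes and adds no support to them. Their adjusted p-values were 0.0196 to 0.0407, and each call was lost without 2 or more of the 12 libraries. The calls of Clcf1 and Ndrg1 were also lost with a pseudocount of 0.1 or 0.01, and that of Cd200 with 0.01. Ndrg1 was at 1.49 to 2.63 FPKM in GTWT and at 0.15 to 0.85 FPKM in GTD272. Outside GTWT it reached 1 FPKM only in GT replicate 4. It passed the filter on low values mainly through GTWT, so its difference and lack of overlap follow in part from the filter.

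The GT libraries entered the filter on low values and the estimate of spread, and so the calls, but not the difference between GTWT and GTD272. With the 8 injected libraries alone 97 genes were lower and 27 higher, so where GT lies is a description of these calls and not independent of them. For 202 of the 215 genes lower in GTWT (94.0%), the GT mean was nearer to GTD272 than to GTWT. For the 73 genes higher this held for 57 (78.1%), and for all genes tested for 7127 of 11687 (61.0%). The genes lower had a median of -0.65 for GTWT minus GT and of -0.08 for GTD272 minus GT. Among these 215 genes GT was the highest of the 3 groups for 142 and the lowest for 1. Among the 73 genes higher GT was the lowest for 23 and the highest for 5. These counts were not taken over all genes, so whether they are unusual is not known. The genes higher had medians of 0.34 for GTWT minus GT and of -0.07 for GTD272 minus GT. Adcy1, Tifab and Gsto2 were among the exceptions, with GT nearer to GTWT.

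**Figure D4:**
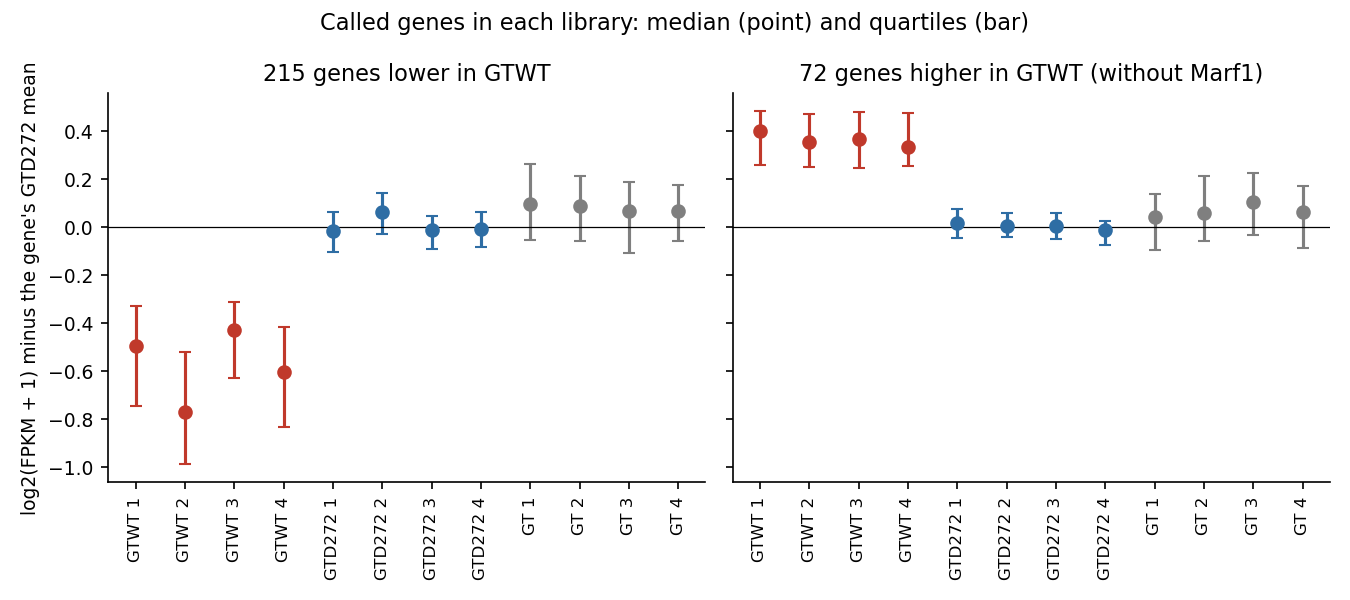
Median (point) and quartiles (bar) over the called genes of log2(FPKM + 1) minus the gene's GTD272 mean (y axis) in each of the 12 libraries (x axis), for the 215 genes lower (left) and the 72 higher without Marf1 (right). The genes lower range from -0.43 to -0.77 among the GTWT libraries, while the genes higher stay between 0.33 and 0.40.

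The GTWT libraries differed among themselves in how low the called genes were. Relative to the GTD272 mean, the median of the 215 genes was -0.50, -0.77, -0.43 and -0.60 in GTWT replicates 1 to 4, whose Marf1 levels were 13.5, 24.1, 13.6 and 19.02 FPKM. Replicates 2 and 4, with the most Marf1, had the lowest medians. Replicates 1 and 3 had nearly equal Marf1 levels, so no order can be read from them. Ppp2cb, at 72.0, 53.3, 79.2 and 73.3 FPKM, was also lowest in replicate 2 but no lower in replicate 4 than in replicate 1. Replicate 2 also had the lowest median log2(FPKM + 1) over all tested genes, 3.60 against 3.63 in each other GTWT library. The genes higher, Marf1 left out, were at 0.40, 0.35, 0.37 and 0.33 in the 4 GTWT libraries. With 4 libraries this is a description. A relation to the Marf1 level and other differences between the libraries were not tested.

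The called genes were also set against all tested genes in gene structure, as a description. Their median level over the 3 groups was 27.04 FPKM for the genes lower and 34.55 for those higher, against 11.57 for all tested. None of the comparisons of gene structure was matched for level. Of the genes lower, 203 of 215 were matched by symbol to the GENCODE M21 annotation, as were 72 of 73 higher and 11200 of all 11687. The transcripts of the genes lower had a median of 5 exons, those of the genes higher 12 and all coding genes 9. Up to 3 exons were found in 55 of the matched coding genes lower (27.9%), 4 of those higher (5.63%) and 1539 of all (14.3%). The median coding length was 1134, 1866 and 1359 bases, and the median 3' untranslated region was 1061, 1584 and 932 bases, in the order lower, higher and all. The G and C content of that region was 40.6, 45.2 and 44.1%.

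The relation with exon number reached beyond the called genes. Over all coding genes, 3.57% of those with 1 to 3 exons were lower in GTWT, 2.51% with 4 to 8, 1.01% with 9 to 15 and 0.727% with 16 or more. The genes higher ran the other way, at 0.260, 0.404, 0.790 and 1.16%. The median level of these classes was 13.87, 15.9, 12.48 and 7.93 FPKM, and the shares called were not adjusted for it. The median difference was -0.08, -0.03, 0.00 and 0.05 in the same order. Each GTWT library showed this order on its own, with medians between -0.09 and -0.06 for 1 to 3 exons and between 0.04 and 0.06 for 16 or more. GTD272 and GT libraries stayed between -0.02 and 0.03 in every class. The GTD272 libraries are set against their own mean and so lie near 0 by construction. Even so, GTD272 replicate 2 fell from 0.03 to -0.01 across the classes. After median scaling the class medians were -0.05, -0.01, 0.03 and 0.08. After quantile normalization they were -0.04, -0.00, 0.04 and 0.09, so the order stayed while the point of 0 moved.

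**Figure D5:**
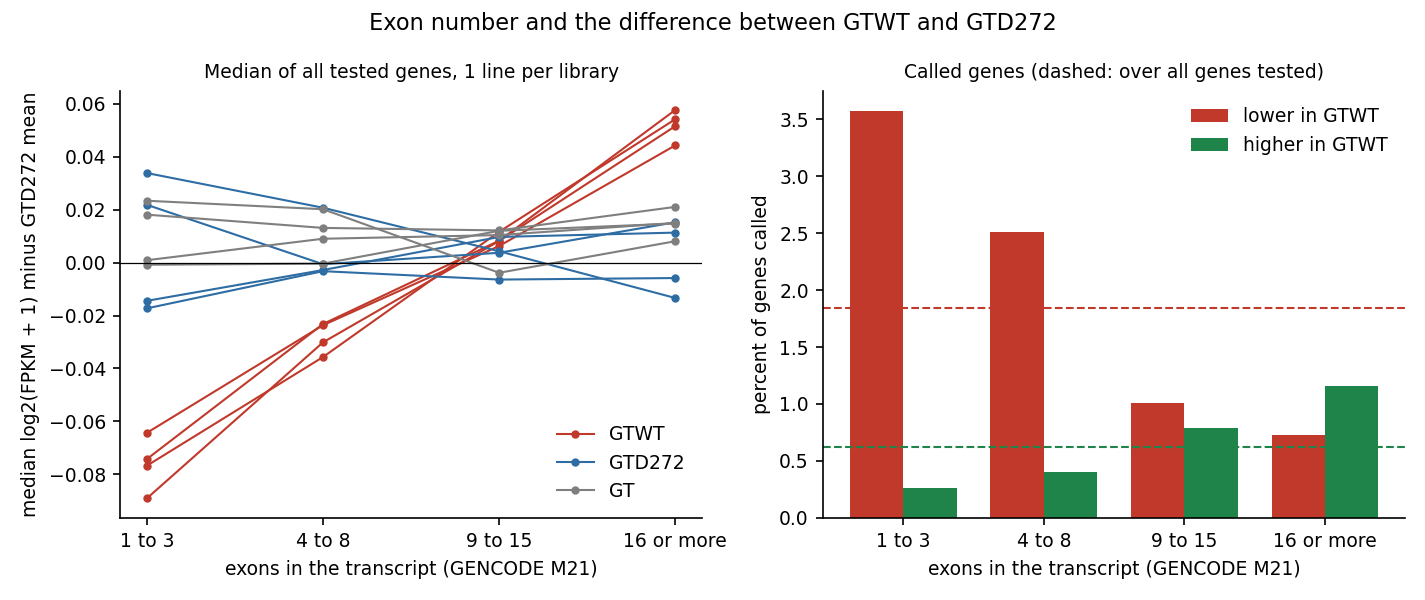
Left, median over genes of log2(FPKM + 1) minus the GTD272 mean (y axis) by number of exons (x axis), with 1 line per library; right, percent of genes called lower or higher in GTWT, with dashed lines at 1.84 and 0.625% for all genes tested. The 4 GTWT lines run from under -0.06 to above 0.04, while the other 8 stay between -0.02 and 0.03. The 4 GTD272 lines lie near 0 by construction.

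Coding length and exon number go together, so the classes were split at the median coding length of 1359 bases. Among shorter coding sequences 3.61% with 1 to 3 exons, 2.10% with 4 to 8 and 0.722% with 9 or more were lower. Among longer ones the shares were 3.43%, 3.94% and 0.941%. The low share of genes with 9 or more exons was thus present on both sides. A match to TATTTAT, the core of an AU-rich element, stood on the sense strand of the 3' untranslated region in 36.3% of the genes lower, 29.9% of those higher and 28.3% of all. TGTANATA, the core that Pumilio proteins bind, was in 29.5, 31.3 and 25.01% in the same order. Only regions of 50 bases or more were searched, 193, 67 and 10408 in that order. Longer regions hold more matches, and these shares were not adjusted for length or level.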

How the data were processed

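RNA was measured by sequencing in 12 libraries, 4 each for GTWT, GTD272 and GT. Reads of 150 bases in pairs were trimmed and aligned to mm10 with TopHat2 2.0.13 according to the labels, per the submitters' processing notes, and the authors computed and normalized FPKM with Cufflinks 2.2.1, which divides reads shared by near-identical genes by an estimate. The authors' gene annotation and any use of strand are not given in the sources used here, so overlapping genes cannot be told apart. The deposited fold changes and p-values were not used.

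The deposited table lists 24254 genes, with each header name shifted by 1 column against its values. A spreadsheet had turned 27 symbols into dates, and no name was matched to them. Of 11687 tested genes, 2469 share a locus with another. Depth was read from FPKM steps: for gene pairs under 0.5 FPKM, the ratio between libraries matched a fraction of whole numbers no greater than 5 (tolerance 0.02 in log2) for 84.1% or more of pairs, so read numbers themselves are not known.

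A gene was kept where 4 or more of the 12 libraries reached 1 FPKM. limma 3.58.1 (R 4.3.3) with a mean-variance trend was fitted to log2(FPKM + 1) of all 12 libraries (residual degrees of freedom 9, prior 4.47), with the contrast GTWT minus GTD272, Benjamini-Hochberg adjustment over all tested genes and calls at 0.05. The fit was tested on simulated data. Gene features came from the transcript with the longest coding part in GENCODE M21 (GRCm38). Alternatives were other pseudocounts, filters and scalings, the 8 injected libraries alone, a replicate block, genes sharing a locus left out and each library left out.

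The comparison, the gene lists and the rules for named genes were chosen with earlier results of these data known. Named genes are Marf1, Ppp2cb and Ppp2ca, the 14 lower and 10 higher called genes with the largest differences and no overlap, the 4 most abundant called in each direction and called list members. Lists of the transcription machinery, zinc finger and homeobox genes, NF-Y, AMPK, importins, Rab GTPases and multi-copy families, and genes named from them, were added after values were seen. Some results are not reported here.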

Additional observations from a re-analysis of the deposited data

Results flagged for a closer look

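In groups of 4 libraries, 1 library lay far from the other 3 in 9 of the 182 gene and library measures examined, where chance alone flags about 1 in 20. In GTD272, Gm5039 was at 23.6 FPKM in replicate 3 and at 43.3 to 48.6 FPKM in the others, and Pknox2 was at 0.671 FPKM in replicate 4 and at 1.77 to 1.97 FPKM in the others. In GTWT replicate 2, Dio3 was at 256 FPKM (341 to 348 FPKM in the others), Strn3 at 26.6 FPKM (34.4 to 35.8 FPKM) and Cenpf at 19.7 FPKM (17.5 to 17.7 FPKM). In GTWT replicate 1, Rab28 was at 22.1 FPKM (18.4 to 18.7 FPKM) and Rab7 at 155 FPKM (145 FPKM in each of the others). Emc7 was at 12.1 FPKM in GTWT replicate 3 (14.3 to 14.6 FPKM), and Mtus1 at 170 FPKM in GTWT replicate 4 (182 to 184 FPKM). Of these, Rab28 lost its call without GTWT replicate 2, 3 or 4, GTD272 replicate 1, 3 or 4 or GT replicate 4 (adjusted p = 0.0514 to 0.0854, limma), and Rab7 without GTWT replicate 1, 2 or 4, GTD272 replicate 1, 2 or 4 or GT replicate 2 (0.0518 to 0.0844). The causes were not tested.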

How the results depend on the processing

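No gene of the 288 was called in the opposite direction under any alternative. The genes lower came to 125 with no filter on low values and to 97 with the 8 injected libraries only. The genes higher came to 124 with median scaling, 144 with quantile normalization and 27 with the 8 injected libraries only. The genes lower by 2-fold or more, 23 as reported, came to 37 with a pseudocount of 0.1, 36 with 0.01 and 13 with no filter, and those higher, 2 as reported, to 5, 5 and 1. Without genes sharing a locus, 201 were lower and 62 higher. With 1 library left out, the counts were 85 to 246 lower, 29 to 70 higher, 11 to 52 lower by 2-fold and 0 to 4 higher by 2-fold, Marf1 was 0.68 to 0.94 and Ppp2cb -0.61 to -0.42. The Ppp2ca difference turned to 0.0125 with median scaling and 0.0372 with quantile normalization. Of 85 named called genes, counted without Marf1, Ppp2cb and Abl2, 80 were not called with the replicate block and 39 with the 8 injected libraries only. Calls were lost for 35 with no filter, 13 with quantile normalization, 9 with median scaling, 9 with a pseudocount of 0.01 and 3 with 0.1. The causes of these changes were not tested.

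Deviations of samples with the same replicate number correlated at -0.09 to 0.02, and 0 of the 4 numbers correlated best with themselves. The labels do not say whether the numbers pair the samples, and these weak correlations cannot settle it. With the replicate block on the 8 injected libraries, 8 genes were lower and 1 higher (4 and 0 at 2-fold), Marf1 was 0.84 (adjusted p = 0.109, limma) and Ppp2cb -0.54 (adjusted p = 0.0762). FPKM of low genes rest on few reads, so differences near 1 FPKM carry more error.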
